A study of Mus musculus with 21 samples.

Results

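The 9 genes described here govern how triglyceride fatty acids leave the blood and enter cells. They are the lipases Lpl and Lipc, the lipase inhibitor Angptl4, the receptors Cd36 and Vldlr, the cytosolic fatty acid binding proteins Fabp4 and Fabp5, and the fatty acid transport proteins Slc27a1 and Slc27a5. They are 9 of the 22520 genes in a table of liver RNA levels, and all 9 were found by symbol. The group was chosen on its level in double knockout liver, where Lpl was already known to stand out from WT. For these genes the difference between double knockout and WT is therefore given as a description, with no test.

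RNA was sequenced from mouse liver of 4 genotypes in 3 conditions, which makes 12 groups, all on a mixed 129SV::FVB/N::C57BL/6 background. WT mice carried Ezh2fl/fl without Cre, E1KO mice were Ezh1-/-, E2KO mice were Ezh2fl/fl with Alb-Cre, and DKO mice were Ezh1-/- and Ezh2fl/fl with Alb-Cre. Mice were untreated and aged 2 or 8 months, or had been injected with CCl4, a toxin that hepatocytes activate, and were aged 3 months. Ezh1 and Ezh2 are the alternative enzymes of PRC2, the complex that places the repressive histone mark H3K27me3. The albumin promoter drives Cre in hepatocytes, so other liver cells of E2KO and DKO mice keep Ezh2, whereas Ezh1 is absent from every cell of E1KO and DKO mice. Because the CCl4 mice were also 3 rather than 2 months old, CCl4 and age cannot be told apart in that comparison.

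Each group has 1 value per gene, in FPKM (fragments per kilobase of transcript, scaled to the mapped fragments of a column). Per the sample titles a group stands for 3 replicates (2 for the 8-month groups), but no value for a single animal is given, so no FPKM value below carries an error. Differences between conditions were averaged over the 4 genotypes in a linear model (limma) on log2(FPKM+1), and their errors measure how far the 12 columns depart from additive effects of genotype and condition. That scale understates the change of genes near 0. A gene was called at a Benjamini-Hochberg adjusted p under 0.05 over the 11394 genes that reached 1 FPKM in 2 or more columns. All 9 genes passed this filter, Vldlr only through its E2KO column at 8 months and its DKO column with CCl4.

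Lipoprotein lipase, the product of Lpl, is secreted, carried to the capillary wall and there splits the triglyceride of chylomicrons and very low density lipoproteins. In adult liver Lpl is normally low, and hepatic lipase, the product of Lipc, is the hepatocyte's own lipase for lipoprotein remnants. Freed fatty acids cross the cell membrane with the help of CD36 and the FATP proteins encoded by the Slc27a genes, and are bound inside the cell by FABP proteins. Several of these genes are known targets of the PPAR nuclear receptors, which sense fatty acids.

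The targeted genes were checked by column. Ezh1 was 1.96 to 2.50 FPKM in the 6 WT and E2KO columns and 0.06 to 0.27 in 5 of the 6 E1KO and DKO columns. The column labelled E1KO at 8 months stood apart, with 0.88 FPKM of Ezh1 and a summed level of 12 skeletal muscle genes of 499.6 FPKM against 1.29 to 2.03 in the other 11 columns. E1KO at 8 months below means the column so labelled, and where leaving it out ended a call of the 9 genes the value without it is given. Ezh2 was 0.74 to 1.27 FPKM in the 8 columns without CCl4 and 2.51 to 5.68 with CCl4, and the deleted exons cannot be seen at the level of the whole gene. Hepatocyte genes were abundant throughout, with 9 of the 14 on the marker list in the table and a summed level of 9569 to 20785 FPKM. Depth is unknown, because only FPKM was given.

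Promoter sequences from RefSeq were at hand for 4 of the 9 genes (Lipc, Cd36, Vldlr and Slc27a1), and those of Cd36 and Lipc are shown because these genes moved in opposite directions with CCl4. Each is the 250 bases before a gene start on assembly GRCm38.p6, on the gene's own strand. Capitals mark AGGTCA, or TGACCT for the same letters on the other strand, the half-site that RXR and its partner receptors, PPARs among them, bind in pairs.
Cd36, chr5:17835897-17836146, minus strand: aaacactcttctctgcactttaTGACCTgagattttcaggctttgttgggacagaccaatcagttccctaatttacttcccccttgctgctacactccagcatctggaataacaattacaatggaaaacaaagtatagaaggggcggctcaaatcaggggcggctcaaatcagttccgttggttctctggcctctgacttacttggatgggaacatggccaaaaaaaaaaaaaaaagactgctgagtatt
Lipc, start 1, chr9:70952222-70952471, minus strand: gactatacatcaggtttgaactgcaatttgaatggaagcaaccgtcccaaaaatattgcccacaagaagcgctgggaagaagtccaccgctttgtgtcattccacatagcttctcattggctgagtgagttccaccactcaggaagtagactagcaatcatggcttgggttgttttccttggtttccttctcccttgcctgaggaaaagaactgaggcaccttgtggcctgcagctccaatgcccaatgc
Lipc, start 2, chr9:70934809-70935058, minus strand: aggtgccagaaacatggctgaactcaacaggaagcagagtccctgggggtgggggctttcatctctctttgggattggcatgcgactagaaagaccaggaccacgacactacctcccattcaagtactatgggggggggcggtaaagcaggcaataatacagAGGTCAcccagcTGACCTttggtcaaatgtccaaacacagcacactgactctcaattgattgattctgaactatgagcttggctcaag
The Cd36 window held 1 match, the window of the Lipc start 2 held 2 on opposite strands, and the 5 Vldlr and Slc27a1 windows held 0. Of all 32851 promoter windows of the table, 14.02% held a match on either strand. Both Lipc windows and the Cd36 window were poor in CpG, with observed-to-expected ratios of 0.243, 0.283 and 0.216 in the 300-base windows around the start, against a median of 0.384 over all windows.

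**Figure D1:**
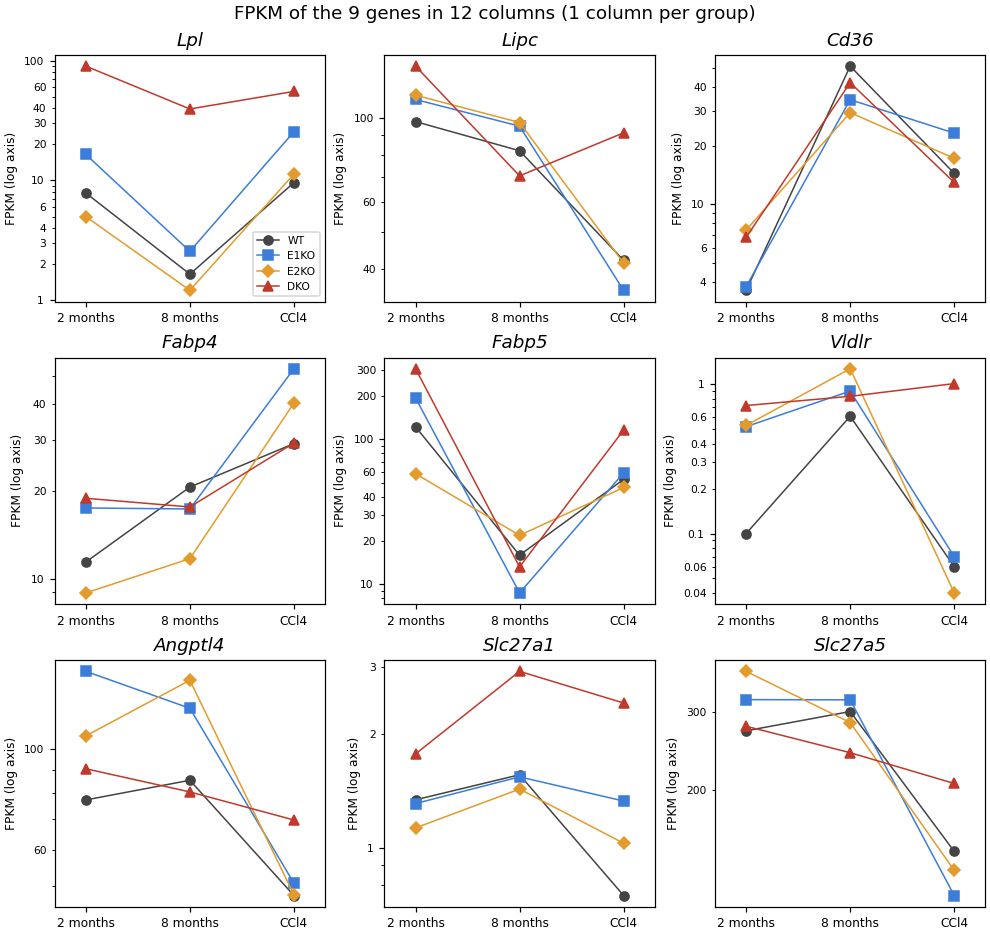
FPKM on a log axis for each of the 9 genes in the 3 conditions, with 1 point per genotype and lines that join the points of a genotype. Lpl lay highest in DKO in every condition, Cd36 rose and Fabp5 fell between 2 and 8 months in every genotype, and Lipc, Angptl4 and Slc27a5 were lower with CCl4 in every genotype.

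Lpl was the gene with the widest range, 74.6-fold between its highest and its lowest column, and the 3 DKO columns were its 3 highest. At 2 months it was 7.86 FPKM in WT, 16.50 in E1KO, 4.99 in E2KO and 90.21 in DKO. The 8-month values were 1.65 in WT, 2.56 in E1KO, 1.21 in E2KO and 39.56 in DKO. In the CCl4 columns it was 9.59 in WT, 25.53 in E1KO, 11.31 in E2KO and 55.45 in DKO. The order was thus DKO, then the column labelled E1KO, then WT and E2KO in either order, in all 3 conditions. DKO was 11.5 times WT at 2 months, 24.0 times at 8 months and 5.78 times under CCl4. In the same order it was 5.47, 15.5 and 2.17 times the highest other genotype. In whole liver, more cells of a type that expresses a gene and more RNA per cell cannot be told apart.

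Across ages Lpl fell. It was lower at 8 than at 2 months in 4 of 4 genotypes, to 0.210 of its 2-month level in WT, 0.155 in E1KO, 0.242 in E2KO and 0.439 in DKO. The average difference was -1.66 ± 0.34 (SE) on the log2(FPKM+1) scale, with a limma adjusted p of 0.0341. The call did not hold without the 8-month E1KO column (-1.40, adjusted p = 0.10), nor without the WT (0.192), E1KO (0.163) or E2KO (0.0816) columns, nor without the filter on low values (0.0659). The levels of the 2 ages overlapped, because DKO at 8 months lay above WT, E1KO and E2KO at 2 months.

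In the columns labelled E1KO, Lpl was 2.10 times WT at 2 months and 2.66 times with CCl4. At 8 months the ratio was 1.55, in the column with 0.88 FPKM of Ezh1 and skeletal muscle RNA. A rise in all 3 was shared by 10.3% of the genes tested. The average E1KO difference of 0.91 ± 0.39 had an unadjusted p of 0.0450 and a limma adjusted p of 0.871, so it was not called. Without the 8-month E1KO column it was 1.26 ± 0.40 (adjusted p = 0.625). In E2KO the average difference was -0.20 ± 0.39 (adjusted p = 1.00).

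With CCl4 the genotypes differed in direction for Lpl. Relative to 2 months, Lpl was 1.22-fold in WT, 1.55-fold in E1KO and 2.27-fold in E2KO, but 0.615-fold in DKO. The average difference was 0.30 ± 0.34 (limma adjusted p = 0.466). Without the DKO columns it was 0.63 (adjusted p = 0.0363). The difference between the CCl4 effect in DKO and that in the other genotypes was -1.32 ± 0.41, with an adjusted p of 0.390, and was not called.

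Macrophages also express Lpl, and the summed level of 17 macrophage and Kupffer cell markers ranged over 123 to 202 FPKM at 2 months, over 89.0 to 162 at 8 months and over 353 to 798 under CCl4. In DKO it was 172 at 2 months, where WT was 160, and 162 at 8 months, where WT was 90.0. Of 16 markers tested, all 16 were higher in DKO than in WT on average over the 3 conditions. Of these 0 were called, where 1.81% of all genes were called higher. In E1KO all 16 were likewise higher than in WT on average, and 0 were called (0.0176% of all genes were). The E1KO sum was 202 FPKM at 2 months, 89.0 in the 8-month column so labelled and 798 with CCl4. Between 2 months and CCl4 the sum in DKO rose from 172 to 702 FPKM while Lpl went from 90.21 to 55.45. Markers of some other cell types also stood higher in DKO at 8 months. The sum of 13 stellate and myofibroblast markers was 203 FPKM there against 91.1 to 116 in the other genotypes. Over the 3 conditions, 11 of the 12 tested were higher in DKO than in WT on average and 3 were called. The sum of 10 cholangiocyte and progenitor markers was 309.8 against 32.4 to 47.8, with 6 of 7 higher on average over the 3 conditions and 1 called. Cldn7 and Prom1 passed the filter only through DKO columns, and the other 5 genes held 0 calls. Most of this sum came from Spp1, and no other marker of the list passed 6.92 FPKM in any column. The sum of 11 lymphocyte and neutrophil markers was 25.7 against 4.88 to 7.0, with 5 of 5 higher on average over the 3 conditions and 1 called. Of these 5, Nkg7 and Cd79a passed the filter only through DKO columns, and the other 3 held 0 calls. The sum of 10 adipocyte markers was 1485.5 FPKM against 1177 to 1384, most of it from Pck1, which hepatocytes also express. Of 4 adipocyte markers tested, 2 were higher in DKO than in WT on average over the 3 conditions and 0 were called. The endothelial and hepatocyte lists did not stand higher in DKO at 8 months. The sum of 14 endothelial markers was 109 FPKM against 106 to 149 in the other genotypes, and that of 9 hepatocyte markers was 9834 against 11936 to 15723. The part of any of these cells in the Lpl level was not tested.

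Lipc was among the more abundant of the 9 genes. It was 97.70 FPKM in WT, 111.69 in E1KO, 114.61 in E2KO and 136.67 in DKO at 2 months. At 8 months its level was 81.91, 95.04, 97.17 and 70.36 in the same order. After CCl4 the values were 42.23 in WT, 35.21 in E1KO, 41.53 in E2KO and 91.29 in DKO. All 4 CCl4 columns lay below all 4 columns of 2 months, and DKO fell least, to 0.668 of its 2-month level against 0.315 to 0.432 in the other genotypes. The average CCl4 difference was -1.21 ± 0.25 (limma adjusted p = 0.00308). The difference of DKO from the other genotypes in this effect was 0.85 ± 0.24, with an adjusted p of 0.337. Between 2 and 8 months the difference was -0.42 ± 0.25 (adjusted p = 0.371), with the lowest 8-month value in DKO.

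The balance of the pair of lipases can be read within a column, where scaling between columns does not enter. At 2 months the FPKM of Lpl was 0.0805 times that of Lipc in WT, 0.148 in E1KO, 0.0435 in E2KO and 0.660 in DKO. At 8 months the ratio was 0.0201, 0.0269, 0.0125 and 0.562 in that order. Under CCl4 it reached 0.227 in WT, 0.725 in E1KO, 0.272 in E2KO and 0.607 in DKO. Lipc exceeded Lpl in all 12 columns. The ratio was highest in DKO without CCl4 and in E1KO with CCl4.

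**Figure D2:**
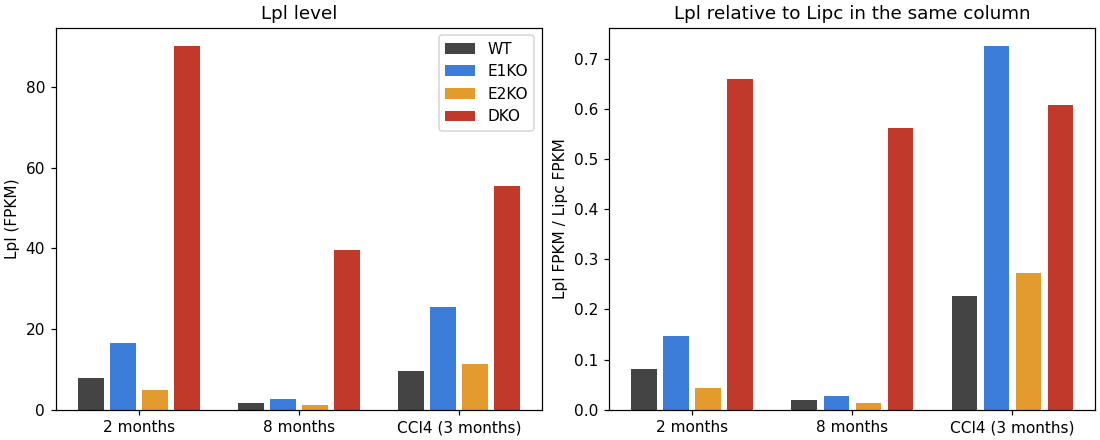
Left, bars of Lpl in FPKM for the 4 genotypes in each condition; right, the ratio of Lpl to Lipc FPKM in the same column. DKO has the tallest Lpl bar in each condition, and with CCl4 the ratio is 0.725 in E1KO against 0.607 in DKO.

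Angptl4 encodes a secreted inhibitor of lipoprotein lipase. At 2 months it was 77.27 FPKM in WT, 147.92 in E1KO, 106.78 in E2KO and 90.44 in DKO, and at 8 months 85.33, 122.75, 141.39 and 80.46. The CCl4 columns held 47.68, 50.76, 47.87 and 69.82. All CCl4 columns lay below all 2-month columns, while 2 and 8 months overlapped. Angptl4 fell by 0.93 ± 0.21 with CCl4 (limma adjusted p = 0.00521), to 0.343 of its 2-month level in E1KO and 0.772 in DKO. Its difference between 8 and 2 months was 0.03 ± 0.21 (adjusted p = 0.960). Without CCl4, E1KO and E2KO were both above WT, by 1.91-fold and 1.38-fold at 2 months, but neither genotype's average difference was called (adjusted p = 0.875 for E1KO, 0.897 without its 8-month column, and 1.00 for E2KO). In DKO at 2 months Lpl reached 0.997 of the FPKM of Angptl4, against 0.0467 to 0.112 in the other genotypes.

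Cd36 encodes the membrane receptor that aids uptake of long-chain fatty acids, and its RNA rose with age in every genotype. At 2 months it was 3.64 FPKM in WT, 3.80 in E1KO, 7.40 in E2KO and 6.79 in DKO. At 8 months it was 50.92 in WT, 34.31 in E1KO, 29.46 in E2KO and 41.91 in DKO. With CCl4 it was 14.41 in WT, 23.15 in E1KO, 17.21 in E2KO and 12.95 in DKO. The 3 conditions did not overlap at all for Cd36, and 8 months was the highest.

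The rise to 8 months was 13.99-fold in WT, 9.03-fold in E1KO, 3.98-fold in E2KO and 6.17-fold in DKO. Its average on the log2(FPKM+1) scale was 2.67 ± 0.28 (limma adjusted p = 0.00306), and it was called under every alternative run. Cd36 also rose with CCl4, by 1.505 ± 0.279 (adjusted p = 0.00185), with 3.96-fold in WT and 1.91-fold in DKO as examples. For neither effect was a difference between DKO and the other genotypes called, -0.28 ± 0.64 at 8 months (adjusted p = 1.00) and -0.89 ± 0.64 with CCl4 (adjusted p = 0.761). The summed macrophage markers, from cells that express Cd36 too, were 89.0 to 162 FPKM at 8 months, where Cd36 was highest, and 123 to 202 at 2 months. They were 353 to 798 FPKM with CCl4, where 14 of 16 were called higher (33.4% of all genes were). Trem2, Gpnmb and Ccr2 passed the filter only through CCl4 columns, and of the other 13 markers 11 were called higher. The part of macrophages in the Cd36 level was not tested.

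Vldlr, the receptor that binds triglyceride-rich lipoproteins, was low in every column. Its range was 0.10 to 0.72 FPKM at 2 months and 0.61 to 1.27 at 8 months. Under CCl4 it was 0.04 to 1.01. With CCl4 the DKO column held 1.01 FPKM and the other 3 genotypes 0.04 to 0.07. At 2 months WT held 0.10 and the other genotypes 0.52 to 0.72. The differences between conditions, 0.38 ± 0.18 at 8 months (limma adjusted p = 0.254) and -0.22 ± 0.18 with CCl4 (0.312), were not called. Without the DKO columns the CCl4 difference was -0.37, between 0.04 to 0.07 FPKM with CCl4 and 0.10 to 0.53 at 2 months. Vldlr would not pass the filter on those columns, so its limma adjusted p there (0.0418) is not read as a call.

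Fabp5 encodes a fatty acid binding protein first known from skin, and it fell with age more than any other of the 9 genes. At 2 months it was 122.26 FPKM in WT, 193.31 in E1KO, 58.06 in E2KO and 307.35 in DKO. The 8-month values were 15.92 in WT, 8.74 in E1KO, 21.80 in E2KO and 13.21 in DKO. In the CCl4 columns it was 52.99 in WT, 58.78 in E1KO, 46.62 in E2KO and 115.93 in DKO. All 8-month columns lay below all others. At 2 months the genotypes spread 5.29-fold, with DKO the highest and E2KO the lowest, and at 8 months 2.49-fold, with E2KO the highest.

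The 8-month level of Fabp5 was 0.130 of the 2-month level in WT, 0.0452 in E1KO, 0.375 in E2KO and 0.0430 in DKO. The average fell by 3.25 ± 0.44 (limma adjusted p = 0.00817). Without the 8-month E1KO column the difference was -2.98 (adjusted p = 0.0335). Without the WT columns the adjusted p was 0.0797, and without the E1KO columns 0.0868. With CCl4 the difference was -1.15 ± 0.44, with an adjusted p of 0.0498 that rose above the threshold in 7 of the 9 alternatives run (up to 0.164, and 0.05002 without the 8-month E1KO column). RefSeq lists the Fabp5 pseudogene Fabp5l2, and the sources used here do not say how reads shared with it were assigned.

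Fabp4, the fatty acid binding protein of adipocytes, macrophages and capillary endothelium, rose with CCl4. It was 11.44, 17.55, 8.96 and 18.95 FPKM in WT, E1KO, E2KO and DKO at 2 months. At 8 months its level was 20.71, 17.41, 11.75 and 17.69. After CCl4 the values were 29.21 in WT, 52.84 in E1KO, 40.26 in E2KO and 29.35 in DKO. Every CCl4 column lay above every other column. The average CCl4 difference was 1.37 ± 0.24 (limma adjusted p = 0.00125), and that of 8 months was 0.26 ± 0.24 (adjusted p = 0.564). With CCl4 the rise was 1.55-fold in DKO against 2.55-fold to 4.49-fold elsewhere, and the test of this difference gave -1.02 ± 0.47 (adjusted p = 0.604).

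Markers of endothelium and macrophages rose with CCl4 beside Fabp4. The summed FPKM of 14 endothelial markers ranged over 77.1 to 120 at 2 months, over 106 to 149 at 8 months and over 191 to 237 under CCl4, and 13 of the 14 were called higher with CCl4. Of 16 macrophage markers tested, 14 were called higher with CCl4, and 11 of the 13 that did not owe their place in the tests to CCl4 columns. Of all genes, 33.4% were called higher. Of 11 adipocyte markers 10 were in the table, with a summed level of 229 to 808 FPKM with CCl4 and 1101 to 2184 in the other columns, most of it from Pck1, which hepatocytes also express. Of those 10, 4 were tested, 0 called higher and 2 lower with CCl4. Adipoq, Lep and Plin1 did not pass 1.35, 0.06 and 0.23 FPKM in any column, each was highest in E2KO with CCl4, and Lep was at 0 in 6 columns. Cfd and Retn reached 35.93 and 1.23 FPKM, both in WT at 8 months. The part of endothelium, macrophages and fat cells in the Fabp4 level was not tested.

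The order of the pair of binding proteins turned with age. Fabp5 was 10.7 times Fabp4 in WT at 2 months, 11.0 times in E1KO, 6.48 times in E2KO and 16.2 times in DKO. At 8 months the ratio was 0.769, 0.502, 1.86 and 0.747, so Fabp4 exceeded Fabp5 in every genotype except E2KO. Under CCl4 it reached 1.81, 1.11, 1.16 and 3.95.

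**Figure D3:**
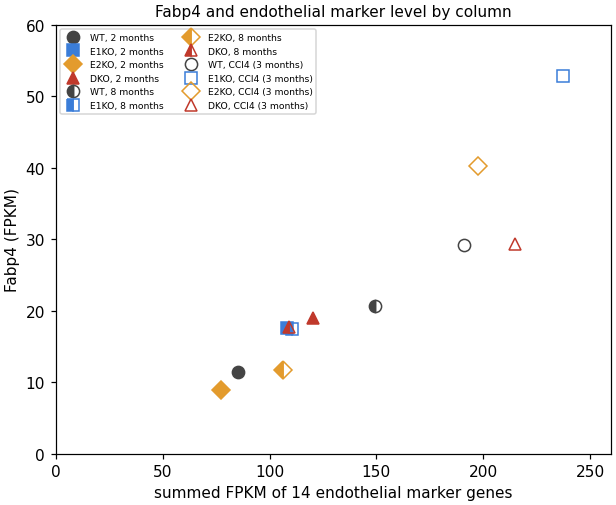
Fabp4 in FPKM against the summed FPKM of 14 endothelial marker genes, with 1 point per column (filled symbols for 2 months, part-filled for 8 months, open for CCl4). The 4 CCl4 columns hold the highest values on both axes, from 191 to 237 summed FPKM and 29.21 to 52.84 FPKM of Fabp4.

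Slc27a5, the liver form of the fatty acid transport proteins, which also activates bile acids, had the highest median level of the 9 genes at 275.6 FPKM. It was 272.27 FPKM in WT, 320.70 in E1KO, 372.01 in E2KO and 278.83 in DKO at 2 months, and 301.26, 320.28, 284.31 and 242.70 at 8 months. The CCl4 columns held 144.61 in WT, 114.67 in E1KO, 130.91 in E2KO and 206.48 in DKO. All CCl4 columns lay below all other columns. The average CCl4 difference was -1.08 ± 0.20 (limma adjusted p = 0.00185), and that of 8 months was -0.11 ± 0.20 (adjusted p = 0.800). DKO kept 0.741 of its 2-month level with CCl4, against 0.352 to 0.531 in the other genotypes, and the test of this difference gave 0.86 ± 0.32 (adjusted p = 0.473).

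Slc27a1, the transport protein of muscle and fat, was 0.75 to 2.92 FPKM and highest in DKO in each condition. In DKO it was 1.77 FPKM at 2 months, 2.92 at 8 months and 2.41 with CCl4, against 1.34, 1.56 and 0.75 in WT. E1KO held 1.31, 1.54 and 1.33 FPKM and E2KO 1.13, 1.43 and 1.03. The 3 DKO columns were its 3 highest, as for Lpl. Neither 8 months (0.24 ± 0.11, limma adjusted p = 0.245) nor CCl4 (-0.04 ± 0.11, adjusted p = 0.747) was called.

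Read over the 9 genes, the comparison of 8 with 2 months called 3 (33.3%), Cd36 higher and Fabp5 and Lpl lower. Of all genes tested, 4.29% were called, 2.7% higher and 1.59% lower. Without overlap between the ages, Cd36 lay above (6.31% of all genes) and Fabp5 and Lipc below (5.79%). CCl4 called 6 of 9 (66.7%), Cd36 and Fabp4 higher and Lipc, Slc27a5, Angptl4 and Fabp5 lower. That share is near the background, since 57.9% of all genes were called with CCl4, 33.4% higher and 24.5% lower. Without overlap, 2 genes lay above (29.6% of all genes) and 3 below (22.8%).

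**Figure D4:**
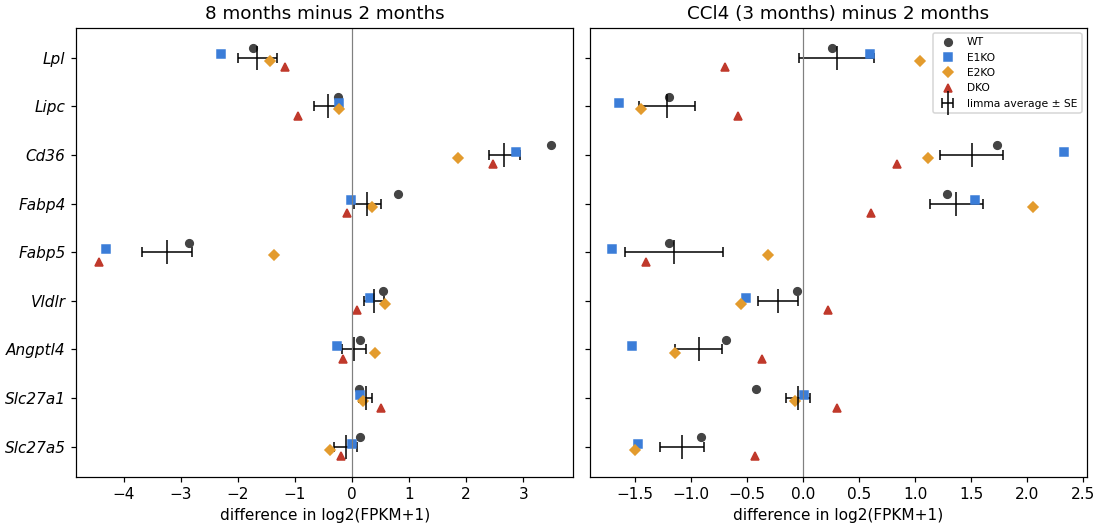
Difference in log2(FPKM+1) of each of the 9 genes, at 8 months from 2 months on the left and with CCl4 from 2 months on the right, with a symbol for each of the 4 genotypes and a bar for the limma average with its SE. Cd36 stands at 2.67 and Fabp5 at -3.25 in the comparison of ages, and Lpl in DKO lies on the other side of 0 from the other genotypes with CCl4.

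Genotype was read in the same way. E1KO against WT called 0 of the 9 genes by limma (0.0176% of all genes were called), and 1 of 9, Lpl, had an unadjusted p under 0.05. E2KO against WT called 0 of 9 (0% of all genes, with 155 at an unadjusted p under 0.05), and 0 of the 9 were under that level. Between DKO and WT, as a description, a difference of at least 1 on the log2(FPKM+1) scale was passed upward by Lpl and Fabp5 at 2 months (1.99% of all genes), by Lpl at 8 months (2.86%), and by Lpl, Lipc and Fabp5 with CCl4 (2.93%). DKO held the highest level of the 4 genotypes for 6 of the 9 genes at 2 months (21.0% of all genes), for 2 at 8 months (26.7%) and for 7 with CCl4 (30.6%). The genes for which DKO was not the highest with CCl4 were Cd36 and Fabp4. Vldlr is counted among the genes highest in DKO at 2 months and with CCl4, and without the DKO columns it would not pass the filter.

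A change of the DKO difference between conditions was called by limma for none of the 9 genes. With CCl4, 0 of 9 were called (0.29% of all genes), 3 had an unadjusted p under 0.05, and adjusted p ran from 0.337 to 0.958. At 8 months, 0 of 9 were called (0.246% of all genes), 1 had an unadjusted p under 0.05, and adjusted p ran from 0.902 to 1.00. Lipc, Slc27a5 and Angptl4, which hepatocytes express, all kept a larger share of their 2-month level with CCl4 in DKO than in the other 3 genotypes. The summed hepatocyte markers were 18550 FPKM in DKO with CCl4 against 9569 to 12077 in the other genotypes, with 5363 and 4738 of the DKO sum from Fgb and Fgg. At 2 months the sum was 13628 in DKO against 16064 to 20785. In DKO the sum thus rose with CCl4, whereas Lipc, Slc27a5 and Angptl4 fell. Among these markers Cyp2e1, the P450 that activates CCl4, was 3857 FPKM in DKO with CCl4 and 151 to 464 in the other 3 genotypes, whereas without CCl4 it was 3778 to 7466 in all 8 columns. The part of these differences in the values of Lipc, Slc27a5 and Angptl4 was not tested.

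Other genes of lipoprotein uptake and fatty acid handling were counted in 6 lists. In DKO against WT, 2.62% of all genes were called (1.81% higher and 0.816% lower), with a median difference of -0.05 over all genes. Of 9 lipases and lipid droplet hydrolases, 1 was called higher, Pnliprp1, a relative of pancreatic lipase, with a list median of 0.06. Pnliprp1 passed the filter only through DKO columns, and the other 8 held 0 calls and a median of -0.01. Of 16 partners and inhibitors of the lipases, 1 was called higher, Apoc2, with a median of 0.00. Of 17 genes of fatty acid binding, transport and activation, 1 was called higher, Mfsd2a, with a median of -0.10. Of 12 lipoprotein receptor genes and of 15 PPARg and fat-storage genes, 0 were called, with medians of -0.03 and -0.04. Of 24 PPARa and PPARd targets and receptors, 1 was called lower, Hadhb of mitochondrial fatty acid oxidation, with a median of 0.06. The call of Hadhb (-0.47 ± 0.10, adjusted p = 0.0473) did not hold without the 8-month E1KO column (0.0551) or on a common upper quartile (0.0830). It was also lost without 2 months (0.267), 8 months (0.260) or CCl4 (0.311), and from the WT and DKO columns alone (0.259).

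Apoc2 encodes the apolipoprotein that lipoprotein lipase needs as its activator. At 2 months it was 367.80 FPKM in WT, 534.59 in E1KO, 411.27 in E2KO and 1064.07 in DKO. At 8 months it was 521.05, 461.61, 413.31 and 1937.25, and with CCl4 2026.85, 1469.28, 1629.79 and 4983.47. DKO was thus highest in each condition, where it was highest for 21.0% of all genes at 2 months, 26.7% at 8 months and 30.6% with CCl4. Apoc2 rose by 1.57 ± 0.22 in DKO (limma adjusted p = 0.0144) and by 2.03 ± 0.19 with CCl4 (adjusted p = 7.82e-05). Where a condition was left out, the DKO call was lost (adjusted p = 0.105 without 2 months, 0.150 without 8 months and 0.133 without CCl4), as it was from the WT and DKO columns alone (0.129).

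Mfsd2a, a transporter of lysophosphatidylcholine that carries fatty acids, was 8.13 FPKM in WT, 37.60 in E1KO, 6.80 in E2KO and 83.30 in DKO at 2 months. The 8-month values were 38.04, 70.65, 70.16 and 98.44, and with CCl4 8.44, 29.20, 9.86 and 58.25. E1KO lay between WT and DKO at 2 months and with CCl4, and so did the 8-month column labelled E1KO. The DKO difference was 2.40 ± 0.46 (limma adjusted p = 0.0370), with 0.0513 without the 8-month E1KO column, 0.249 without 2 months and 0.291 without CCl4. This call was also lost without the filter on low values (0.0538) and from the WT and DKO columns alone (0.150). The E1KO difference was 1.54 ± 0.46 (adjusted p = 0.816), and 1.80 ± 0.53 without its 8-month column (0.586). Pnliprp1 in DKO was 1.22 FPKM at 2 months, 4.17 at 8 months and 1.39 under CCl4, and 0.01 to 0.11 in all other columns. It entered the tests only through its DKO columns, so it had to differ there. Its call (adjusted p = 0.0212) did not hold without 2 months (0.151) or CCl4 (0.160), or from the WT and DKO columns alone (0.167). Gpihbp1, which anchors lipoprotein lipase to capillary endothelium, ranged over 7.62 to 13.60 FPKM at 2 months, over 12.95 to 20.31 at 8 months and over 28.87 to 54.15 under CCl4, a rise of 1.75 ± 0.23 (adjusted p = 0.000288). The FPKM of Lpl was 6.63 times that of Gpihbp1 in DKO at 2 months, 2.61 times at 8 months and 1.92 times with CCl4.

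Of 15 PPARg and fat-storage genes tested, 7 were called higher and 0 lower at 8 against 2 months, where 2.7% of all genes were called higher, with a list median of 1.45 where the median of all genes was 0.00. Pparg itself, the receptor that drives fat storage, was 2.32 to 4.92 FPKM at 2 months and 7.55 to 14.88 at 8 months (1.45 ± 0.26, limma adjusted p = 0.0234). This call did not hold without the 8-month E1KO column (0.0612), nor without the WT (0.128), E1KO (0.120) or DKO (0.0803) columns. The other 6, named because they were called, were the lipid droplet genes Cidea, Plin4, Fitm1, Fitm2 and G0s2 and the acyltransferase gene Mogat1. Plin4 went from 0.40 to 1.41 FPKM at 2 months to 2.85 to 6.14 at 8 months (1.49 ± 0.16, adjusted p = 0.00321). Cidea and Cfd entered the tests only through 8-month columns, and of the other 13 genes 6 were called higher, with a median of 0.86.

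Of 24 PPARa and PPARd genes, 8 were called higher and 0 lower at 8 months, with a median of 0.74. The 8 were Pdk4, Cyp4a14, Acot1, Acot2, Acot3, Acot4, Acadm and Aldh3a2. Acot4 was 3.71 to 5.50 FPKM at 2 months and 12.27 to 21.23 at 8 months (1.60 ± 0.16, limma adjusted p = 0.00286). The counts rest on few columns: without the column labelled E1KO at 8 months they were 1 in the PPARg list and 5 in the PPARa and PPARd list. Without the WT columns they were 1 and 2, without E1KO 1 and 4, without E2KO 6 and 4, and without DKO 1 and 5. Of the 9 lipases 1 was called higher with age (Lipa), of the 17 fatty acid transport genes 1 higher (Acsl3) and 1 lower (Scarb1), and of the 16 lipase partners 0. Of the 12 lipoprotein receptor genes 0 were called higher and 2 lower, with a median of -0.13. Of genes that mark adipocytes, Adipoq was 0.00 to 0.03 FPKM at 2 months and 0.12 to 0.41 at 8 months. Cfd was 0.07 to 0.40 FPKM at 2 months, and at 8 months 35.93 in WT, 4.41 in E1KO, 1.06 in E2KO and 13.69 in DKO. Retn was 0 FPKM in every 2-month column and 0.26 to 1.23 at 8 months. Adipoq and Cfd are also on the PPARg and fat-storage list. Of 4 adipocyte markers tested, 0 were called with age, where 4.29% of all genes were. The part of fat tissue in the list values was not tested.

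**Figure D5:**
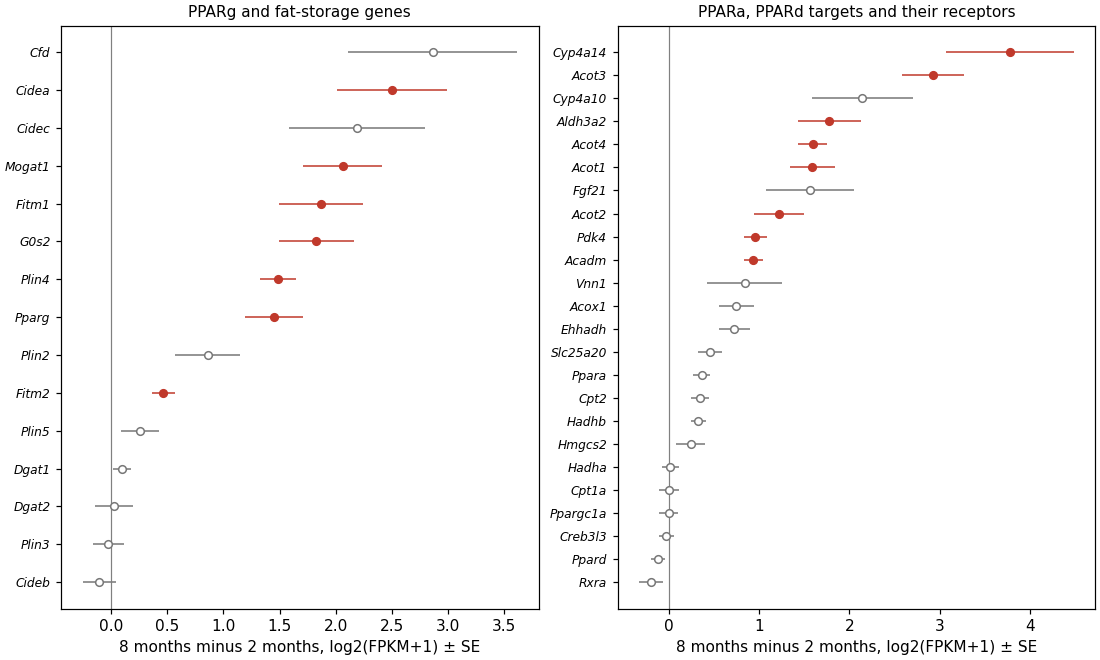
Average difference in log2(FPKM+1) between 8 and 2 months, with its SE, for the 15 PPARg and fat-storage genes and the 24 PPARa and PPARd genes tested; filled points are called and open points are not. The called genes, 7 and 8, all lie to the right of 0.

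With CCl4 the same lists held calls in both directions, in a comparison that called 57.9% of all genes. Of the lipases 1 was called higher and 3 lower, of the lipase partners 6 and 5, and of the fatty acid binding and transport genes 8 and 1. Of the lipoprotein receptor genes 4 were called higher and 2 lower, of the PPARg and fat-storage genes 2 and 4, and of the PPARa and PPARd genes 11 and 2. The receptor gene Lrp11 passed the filter only through CCl4 columns, and of the other 11 receptor genes 3 were called higher and 2 lower. Fitm1, which was called higher at 8 months, fell by 1.99 ± 0.37 with CCl4 (limma adjusted p = 0.00196). Cyp4a14, a fatty acid hydroxylase, rose by 4.35 ± 0.71 (adjusted p = 0.000938). Hadhb rose by 1.32 ± 0.09 (adjusted p = 2.18e-05) and the caveolin gene Cav2 by 1.53 ± 0.18 (adjusted p = 0.000188).

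The genes whose levels followed each of the 9 most closely were sought among 4824 genes with a range of at least 1 on the log2(FPKM+1) scale, by Pearson correlation over the 12 columns, which share the same 3 conditions. For Lpl they were Ihh (0.942), Gbp3 (0.941), Src (0.924), Isg20 (0.921) and Fads3 (0.917). All 5 were low, at 0.24 to 7.35 FPKM. Those of Fabp4 were Gpihbp1 (0.965), Esam, Clec14a, Ctla2a and Tie1. Gpihbp1, Esam, Clec14a and Tie1 are known as genes of endothelial cells. Those of Cd36 were Tpt1 (0.928), Acot4, Slc16a7, Gm7609 and Pdk4, and Acot4 and Pdk4 are on the PPARa and PPARd list.

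The closest genes to Slc27a5 were Aldh1l1 (0.979), Aldh7a1, Shpk, Npc1 and Dgat2, and those to Lipc were Ces2a (0.962), Cml1, Rdh7, Cyp2c44 and Serpinf1. Angptl4 was closest to Cmtm8 (0.950), Ip6k2, Slc6a9, Zkscan14 and Atg14. Fabp5 was closest to Serpina9 (0.924), Tspan33, Fam46a, Pdia5 and BC057022. Vldlr was closest to Lipg (0.937), the endothelial lipase gene, then Tbc1d16, Odz3, Slc5a6 and Tnfrsf19. Slc27a1 was closest to Cyp17a1 (0.921), Cib2, Hist1h4h, Adora1 and Rab30, and Cyp17a1 was 29.36, 58.16 and 19.18 FPKM in DKO against 10.34, 10.26 and 4.16 in WT across the 3 conditions.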

How the data were processed

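Liver RNA-seq of 12 groups (4 genotypes in 3 conditions) was used, with 1 deposited column per group; the 9 ChIP-seq and input samples are not analysed here. The authors deposited FPKM values of 22520 genes, on mouse assembly mm9 per the submitters' processing notes, which name CASAVA, TopHat, Cufflinks, BWA, SICER and HOMER without versions or roles. The sources used here do not say how replicates were combined, and p-values measure the departure of the columns from the model, not the spread between animals. Column totals were 531761 to 674119 FPKM.

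The 11394 genes that reached 1 FPKM in 2 or more columns were fitted with limma 3.58.1 in R 4.3.3 on log2(FPKM+1), with additive genotype and condition terms, a trend in mean expression and 6 residual degrees of freedom. Adding DKO-by-condition terms left 4, and there DKO is set against the average of the other genotypes. Tests were two-sided, with Benjamini-Hochberg adjustment over all genes and a threshold of 0.05. The procedure was tested on simulated data. Tables were made with Python 3.11.15 and pandas 2.3.3.

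The genes, lists and tests were chosen with earlier results of these data known. Named besides the 9 genes were list genes called in DKO or with CCl4 (at most 3 per list for CCl4) and the 5 genes of the closest pattern. List genes called at 8 months were named after their values were seen. Alternatives were a pseudocount of 0.1, no filter, a common upper quartile, no trend, and the leaving out of genotypes, conditions or the 8-month E1KO column. The genes behind the calls of the lipoprotein receptor list at 8 months are not reported here.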

Additional observations from a re-analysis of the deposited data

How the results depend on the processing

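No paired analysis was possible because each group has 1 column and no replicate numbers of its own. The 8-month comparison called 489 genes, and 127 without the 8-month E1KO column, 54 without the WT columns, 63 without E1KO, 240 without E2KO and 147 without DKO. Of the 9 genes it called 3, and 1 without either the WT or the E1KO columns. DKO against WT called 299 genes, and 23, 37 and 25 without 2 months, 8 months and CCl4, and 5 from the WT and DKO columns alone. E1KO against WT called 2, and 4 without the 8-month E1KO column or without CCl4, and 0 without 2 months, without 8 months or from 2 genotypes. The tests of DKO by CCl4 and by 8 months called 33 and 28 genes, 7 and 3 with a pseudocount of 0.1, and 300 and 328 without the filter. Genes past 2-fold between DKO and WT numbered 396 at 2 months, 465 at 8 months and 616 under CCl4, but 720, 951 and 961 with a pseudocount of 0.1. A common upper quartile moved the DKO split from 206 higher and 93 lower to 278 and 51, and the CCl4 split from 3800 and 2794 to 3358 and 3224. Signs turned only for differences that were not called: Slc27a1 with CCl4 was 0.081 without WT, and Angptl4 at 8 months was -0.011 without WT and -0.10 without E2KO. Of the 5 closest genes, rank correlation kept 4 for Lpl, 2 for Cd36, Fabp4, Fabp5, Vldlr and Slc27a1, 1 for Lipc and Angptl4 and 0 for Slc27a5. Without the CCl4 columns 1 stayed for Lipc, Cd36, Fabp4, Fabp5 and Angptl4 and 0 for Lpl, Vldlr, Slc27a1 and Slc27a5. The causes were not tested. No depth is known, so values under 1 FPKM carry no stated precision.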

Other observations

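At 2 months several genes outside the 9 had levels in E1KO between those in WT and DKO, or near DKO. They were picked after their values were seen and are given as values only. Cyp4a14 was 0.74 FPKM in WT, 12.66 in E1KO, 0.96 in E2KO and 33.09 in DKO. Cyp4a10, another fatty acid hydroxylase gene, was 6.59, 48.64, 9.86 and 60.48 FPKM. Plin4 was 0.40, 1.41, 0.54 and 1.40 FPKM. Over the 3 conditions the limma difference of E1KO from WT was 0.77 for Cyp4a14 (adjusted p = 0.966), 0.29 for Cyp4a10 (0.996) and 0.46 for Plin4 (0.871), so none of the 3 was called. Without the 8-month column labelled E1KO, which holds 0.88 FPKM of Ezh1 and skeletal muscle RNA, the differences were 1.24 (0.956), 0.60 (0.977) and 0.39 (0.876).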
